A study of Mus musculus with 5 samples.

Results

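Replication-dependent histone genes encode the histones that package newly copied DNA. They were taken as every gene of the Hist1, Hist2, Hist3 and Hist4 clusters by its symbol, with no measured value used, and gave 68 of the 24421 genes measured (0.278%). Of these, 6 were H1 genes, 18 H2A genes, 19 H2B genes (1 of them a pseudogene), 12 H3 genes and 13 H4 genes. H2A, H2B, H3 and H4 form the nucleosome core, and H1 is the linker histone that binds DNA between nucleosomes.

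RNA-seq libraries of 5 mouse cell samples were available, 1 per group. MEFs are mouse embryonic fibroblasts from embryos of CF-1 mice. The iPSCs (label IPS) are induced pluripotent stem cells, and V6.5 is a line of mouse embryonic stem cells (mESCs), sequenced untreated. V6.5_NTC (NTC here) are V6.5 cells with a non-targeting control shRNA, and V6.5_shGLDC (shGLDC here) are V6.5 cells with an shRNA against Gldc, a glycine decarboxylase; the deposited column is labelled sh3, and no hairpin sequence was assigned to it here. MEFs grew in medium with serum. The labels give feeder-independent culture for the pluripotent cells, in serum replacement with a little serum and leukaemia inhibitory factor, and the study's methods also describe a serum medium for such cells on feeders, so medium, strain and cell type cannot be told apart between MEFs and the other cells. How many clones or cultures a library holds is not given in the sources used here. Because each group was 1 library, no difference has a replicate check, and no p-value is given. Levels are in FPKM, a count of fragments scaled to transcript length and to the size of the library. They came in 2 tables made separately, MEF, iPSC and untreated V6.5 in the first and NTC and shGLDC in the second, so a level set across the tables includes any difference between them.

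Cells make these histones mainly in S phase, when DNA is replicated, and switch the genes on together from clusters in which H2A and H2B genes often share a promoter region. Their mRNAs are known for ending not in a poly(A) tail but in a short stem-loop, which the stem-loop-binding protein Slbp holds while the U7 particle directs the cut behind it. Some of the genes can also give longer, polyadenylated mRNAs, known mainly from differentiated cells. Most histone genes outside the clusters, such as H2afz and H3f3b, give polyadenylated mRNAs and are expressed throughout the cell cycle.

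The stem-loop was looked for in the annotated transcripts of each gene (GENCODE M21, mm10) and found in 44 of the 68 genes. Of the 24 genes without a match, 15 had no annotated transcript of 450 nt or more. The sequences below are shown because this end sets the genes apart from other mRNAs. They are the stem-loops of the gene with the highest mean FPKM of its type among those where one was found, with the 16 stem-loop bases in capitals.
Hist1h1c (H1, chr13:23739506-23739533, plus strand): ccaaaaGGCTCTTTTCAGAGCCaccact
Hist1h2ap (H2A, chr13:21833026-21833050, minus strand): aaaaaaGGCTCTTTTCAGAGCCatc
Hist1h2bk (H2B, chr13:22036294-22036321, plus strand): accaaaGGCTCTTTTAAGAGCCactaaa
Hist1h3c (H3, chr13:23745041-23745068, minus strand): aaaaaaGGCTCTTTTAAGAGCCacctaa
Hist1h4i (H4, chr13:22040960-22040987, minus strand): cttaaaGGCCCTTTTTAGGGCCaccaca
The form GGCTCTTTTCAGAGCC was found in 10 H2A, 8 H2B, 5 H3 and 3 H1 genes. The 10 H4 genes with a stem-loop had other forms, 7 of them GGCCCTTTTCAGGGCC. In 27 of the 68 genes the annotation holds a longer transcript, which runs at least 100 bases past the stem-loop, is spliced, or lacks a stem-loop and is at least 1000 nt long. Spliced transcripts were annotated for 5 genes, all H2B (Hist1h2bc, Hist1h2be, Hist1h2bp, Hist1h2bq and Hist1h2br), and the other 63 had a single exon.

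Many members are near-identical copies. The 13 H4 genes encode 1 protein, the 12 H3 genes 2, the 18 H2A genes 9, the 19 H2B genes 11 and the 6 H1 genes 6. Stretches of 50 nt that also occur in transcripts of other genes made up a median of 46.4% of a member's sequence, with medians of 73.0% for H2A, 57.2% for H3, 43.8% for H2B, 39.5% for H4 and 1.13% for H1. How reads that fit several copies were assigned is not given in the sources used here, so values of single copies are uncertain where this share is high, such as 93.1% for Hist1h2ap, 90.7% for Hist1h2ah and 79.7% for Hist1h2af. Each of the 18 H2A genes overlaps another annotated gene, in 13 of them only a predicted miRNA gene, and without a stated strand setting reads of overlapping genes cannot be told apart.

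Gldc and the cell type markers followed the labels. Gldc had an FPKM of 74.7 in NTC and 2.07 in shGLDC, and 59.7 in untreated V6.5 cells. The summed FPKM of 8 pluripotent markers was 3.28 in MEFs and 3753 to 7023 in the other libraries, and that of 10 fibroblast markers 7148 in MEFs and 9.11 to 54.7 elsewhere. The MEF library also held macrophage RNA, with a summed FPKM of 329.9 over 8 macrophage markers against 11 to 20.9 elsewhere, and its part in the results below was not tested. From the steps between low values, depth was estimated, with an uncertainty of a factor of 2 for NTC and shGLDC. By this estimate, a count of 3 fragments on a 400-nt transcript corresponds to an FPKM of 0.259 to 0.340, and lower values rest on fewer fragments.

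H2A genes made up most of the summed FPKM of the 68 cluster genes in every library. Over the 68 genes, the summed FPKM was 493 in MEFs, 957 in iPSCs, 2022 in untreated V6.5 cells, 1459 in NTC and 1540.5 in shGLDC. H2A took 67.8%, 85.4%, 95.7%, 94.2% and 85.1% of these sums. Hist1h2ap alone, an H2A gene, took 42.0%, 55.4%, 46.0%, 35.5% and 33.6%. The other 4 types together summed to 159, 139.7, 87.8, 84.5 and 229, so the order of the libraries turns on whether H2A is counted: untreated V6.5 cells were highest with it and second lowest without it.

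**Figure D1:**
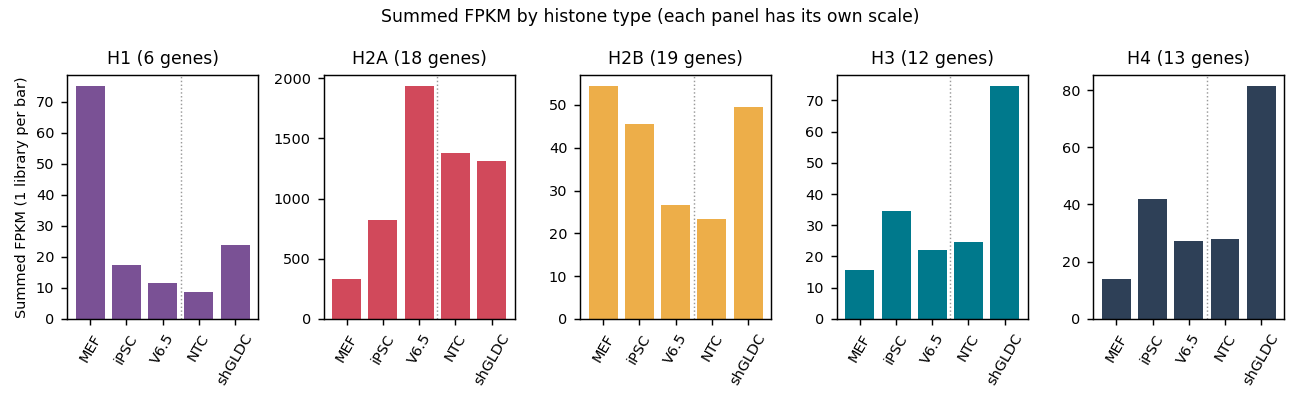
Summed FPKM of each histone type (vertical axis, a scale per panel) in the 5 libraries (horizontal axis, 1 library per bar, the dotted line dividing the tables). H1 is highest in MEFs (75.1), H2A in untreated V6.5 cells (1934), and H3 (74.6) and H4 (81.4) in shGLDC.

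The sums of the types ran in different orders. For H1 they were 75.1, 17.5, 11.6, 8.78 and 23.8 in MEFs, iPSCs, untreated V6.5 cells, NTC and shGLDC, and for H2B 54.4, 45.6, 26.7, 23.4 and 49.6, both highest in MEFs. For H3 they were 15.6, 34.7, 22.2, 24.6 and 74.6, and for H4 13.9, 42.0, 27.4, 27.8 and 81.4, both lowest in MEFs and highest in shGLDC. By cluster, Hist1, with 54 genes on chromosome 13 (21715763 to 23934851), held 89.6% of the sum in MEFs and 96.2% to 99.7% in the other libraries. Hist2 has 10 genes on chromosome 3 (96219865 to 96270132), Hist3 has 3 on chromosome 11 (58948920 to 58956830) and Hist4 has 1 on chromosome 6 (136801553 to 136804415).

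Of the 68 genes, 55 reached an FPKM of 1 in at least 1 library and 18 reached 10, and Hist1h2aa was listed at 0 in all 5. In the sentences that follow, 5 values in a row are FPKM in MEFs, iPSCs, untreated V6.5 cells, NTC and shGLDC, in that order. Hist1h2ap had an FPKM of 207, 530.3, 929.9, 517 and 517. Hist1h2ah, which encodes a protein of its own that is 128 residues long, had 12.2, 41.7, 222, 169.7 and 154. Untreated V6.5 cells were highest for both and MEFs lowest.

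Another 6 H2A genes of Hist1 were each lowest in MEFs, intermediate in iPSCs and higher in all 3 V6.5 libraries. Hist1h2ad had an FPKM of 3.34, 18.7, 153, 152 and 152, and Hist1h2ab 2.09, 8.80, 79.6, 65.4 and 66.4. Hist1h2af, which also encodes a protein of its own, had 0.694, 5.80, 57.3, 71.4 and 44.9. Each of these 3 was lower in MEFs than the other 3 genes of the group. Hist1h2ai had 5.81, 22.9, 127, 89.0 and 99.2. Hist1h2an had 6.45, 23.9, 120.2, 139 and 108. Hist1h2ae, whose annotated transcript extends past the stem-loop, had 4.82, 13.2, 88.5, 85.8 and 66.9. The 3 V6.5 libraries differed among themselves by less than 2-fold for each of these 6 genes.

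The remaining Hist1 H2A genes differed less. Hist1h2ag had an FPKM of 38.0, 102, 102, 55.9 and 60.6, equal in iPSCs and untreated V6.5 cells. Hist1h2ac had 6.69, 17.5, 21.9, 9.31 and 13.8. Hist1h2ao had 3.75, 9.37, 23.9, 15.6 and 14.9. MEFs were lowest for these 3 as well. Hist1h2ak, with an FPKM of 0.222, 0.951, 2.2, 1.70 and 3.74, was the lowest of the 12 Hist1 H2A genes above 0.

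H2A genes of the other clusters did not share 1 order of libraries. Hist3h2a had an FPKM of 25.6, 17.5, 3.70, 1.04 and 3.0, highest in MEFs. Its annotated transcript runs 1643 bases past the stem-loop, and 2.00% of its 50-nt stretches are shared. Hist2h2aa1 had 17.2, 2.3, 1.90, 0.376 and 2.15, also highest in MEFs. Hist2h2aa2, with the same protein and all of its 50-nt stretches shared, had 0.0527, 2.5, 0.0151, 0.435 and 1.24, so the split between these copies is uncertain. Their summed FPKM was 17.2, 4.80, 1.91, 0.811 and 3.39. Hist2h2ac had 0.0435, 0.459, 0.165, 0.0738 and 2.23, lowest in MEFs, and Hist2h2ab stayed under 0.1 in each library.

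Among H1 genes, only Hist1h1c reached 10. It had an FPKM of 73.3, 14.9, 8.54, 5.15 and 16.9, and made up 97.6% of the H1 sum in MEFs and 58.7% to 85.1% elsewhere. Hist1h1a, which encodes another H1 subtype, had 0.0546, 0.729, 1.52, 0.741 and 4.41, and was highest in shGLDC and lowest in MEFs. Hist1h1b had 0.153, 0.398, 0.639, 1.39 and 1.06, and Hist1h1d 1.11, 0.895, 0.494, 0.798 and 1.08. Hist1h1e and the testis H1 gene Hist1h1t stayed under an FPKM of 1 in each library.

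H2B genes were led by Hist1h2bc, with an FPKM of 35.8, 21.2, 10.3, 6.35 and 15.3, highest in MEFs. Its annotated transcripts are spliced and hold no stem-loop match. Hist1h2bg had 6.58, 5.12, 1.94, 2.45 and 5.72, Hist1h2bk 4.64, 2.06, 3.38, 4.22 and 7.79, and Hist1h2bj 1.64, 2.73, 2.04, 5.10 and 5.75. Hist3h2ba stood apart from these, with 0.302, 8.28, 4.90, 0.619 and 1.76. Hist1h2bb had 0.236, 1.03, 0.375, 0.0939 and 3.62. Hist1h2bh had 0.394, 0.638, 0.40, 0.0988 and 1.80. Hist1h2bp had 0.13, 0.329, 0.203, 0.299 and 2.18. These last 3 reached their highest level in shGLDC.

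Other H2B genes were near the limit of the depth. Hist1h2bf had an FPKM of 0.0944, 0.987, 0.467, 0.080 and 1.37, and Hist2h2bb 0.726, 0.138, 0.0817, 0 and 1.06. Hist1h2bl had 1.25, 0.134, 0.573, 0.503 and 1.17, Hist1h2bm 0.169, 0.785, 0.294, 1.71 and 1.00, and Hist1h2bn 1.04, 0.521, 0.720, 1.63 and 0.644. No library was highest for all 5. Hist1h2ba, Hist1h2be, Hist1h2bq, Hist1h2br, Hist2h2be and the pseudogene Hist3h2bb-ps stayed under 1.

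H3 genes were highest in shGLDC in Hist1 but not in Hist2. Hist1h3c, the leading H3 gene, had an FPKM of 1.86, 13.4, 6.83, 9.98 and 23.4, and Hist1h3h 0.652, 3.43, 2.52, 4.14 and 10.6. Hist1h3a had 0.179, 1.88, 2.12, 1.31 and 6.87. All 3 were lowest in MEFs. Hist1h3e had 0.473, 3.71, 0.345, 1.36 and 6.54, Hist1h3g 1.22, 1.57, 2.52, 1.53 and 6.04, and Hist1h3i 1.48, 1.99, 1.16, 1.39 and 6.47. Hist1h3b had 1.22, 2.2, 2.23, 1.80 and 4.90, Hist1h3d 1.85, 1.97, 1.69, 1.89 and 4.81, and Hist1h3f 0.256, 0.347, 1.20, 0.152 and 2.24. The shGLDC library was highest of the 5 for all 9 Hist1 H3 genes. In Hist2, Hist2h3c2 had 4.76, 0.977, 0.363, 0.0814 and 0.649, Hist2h3b 1.63, 2.32, 0.882, 0.940 and 1.26, and Hist2h3c1 0.00328, 0.915, 0.325, 0.0433 and 0.753.

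H4 genes, which encode the same protein, differed widely in level. Hist1h4i led with an FPKM of 8.96, 23.3, 14.7, 16.5 and 36.4, which was 44.7% to 64.5% of the H4 sum. Hist1h4b had 0.0541, 2.32, 1.12, 1.34 and 8.28, Hist1h4c 0.174, 1.65, 0.576, 0.878 and 6.0, and Hist1h4k 0.657, 2.23, 0.884, 2.5 and 5.85. All 4 genes were lowest in MEFs and highest in shGLDC. Hist1h4a had 0.0537, 1.42, 1.57, 0.493 and 2.22, Hist1h4f 0.0527, 0.945, 0.678, 0.694 and 2.56, and Hist1h4h 1.26, 3.94, 2.42, 1.74 and 4.53. Hist1h4d had 0.498, 2.44, 2.86, 0 and 4.18, Hist1h4j 0.273, 1.38, 0.457, 2.02 and 2.23, and Hist1h4n 1.5, 2.00, 1.25, 0.699 and 5.03. Hist4h4, a single gene outside the large clusters, had 0.185, 0.256, 0.827, 0.0739 and 4.12. Hist2h4 and Hist1h4m stayed under 1.

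**Figure D2:**
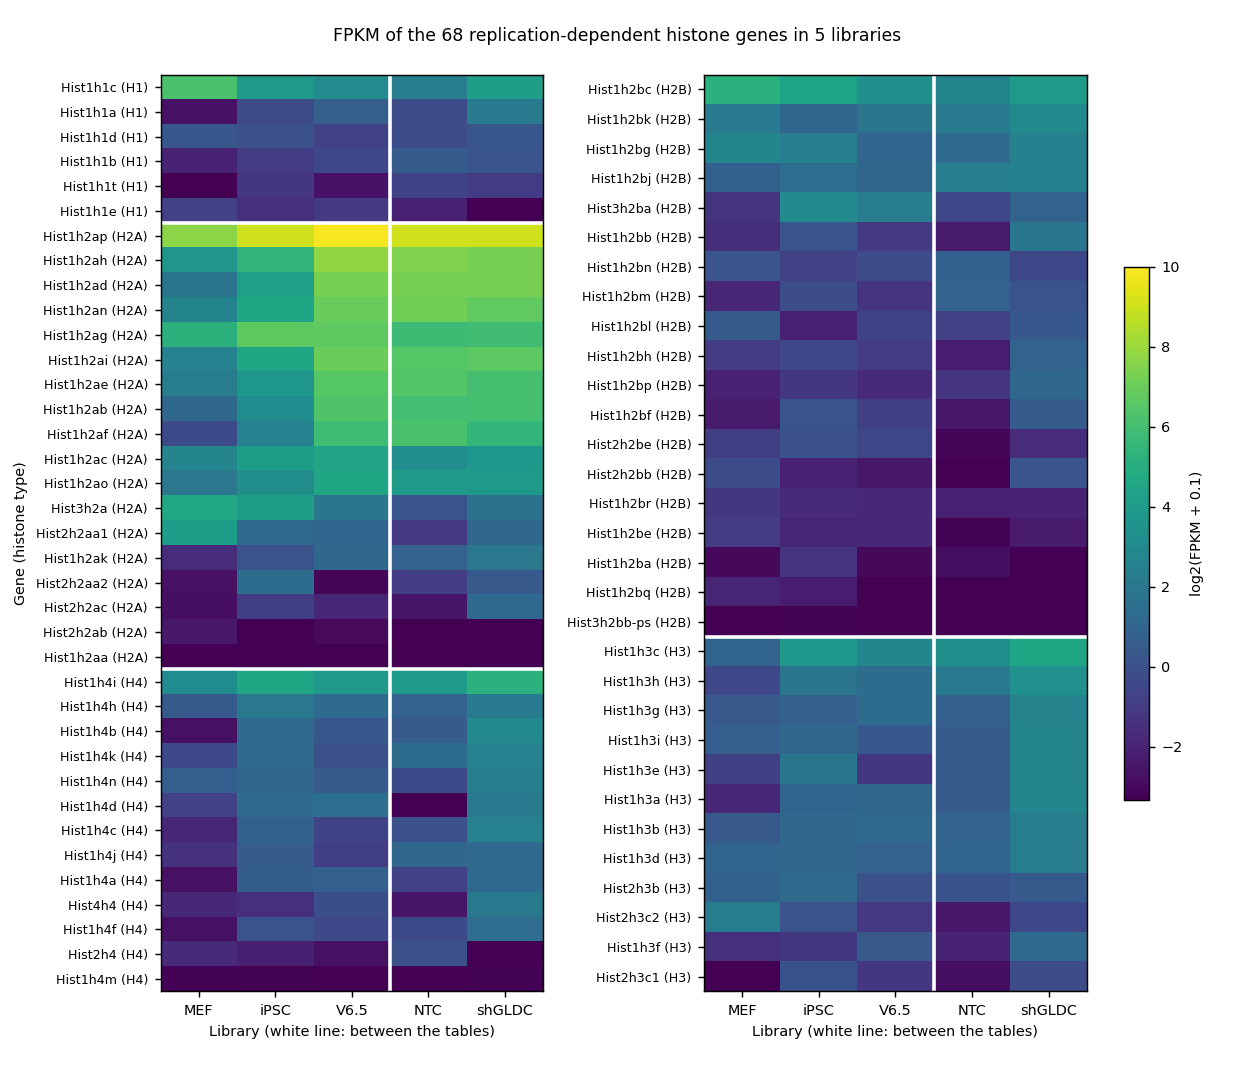
Heat map of log2(FPKM + 0.1) (colour) for the 68 genes (rows, grouped by histone type and ordered by mean FPKM) in the 5 libraries (columns, the white line dividing the tables). Hist1h2ap is the brightest row in every library, and the 9 Hist1 H3 genes and 12 of 13 H4 genes are brightest in shGLDC.

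Untreated V6.5 cells were compared with MEFs to ask how the histone genes of mESCs differ from those of somatic cells. Log2 ratios here are differences in log2(FPKM + 0.1), which understate the ratio of low genes, and a gene is called at a 2-fold difference where one of the libraries reached an FPKM of 1. Of the 68 genes, 40 passed this filter, and 21 were called higher in V6.5 cells and 8 lower. Over all genes tested, 30.3% were called higher and 23.3% lower (53.7% in either direction), with a median log2 ratio of 0.25. A gene that passed only through the library where it was high had to differ, as 10 genes did through V6.5 cells, so counts without the filter are given as well. Without it, 27 of the 68 genes were 2-fold higher and 11 lower, against 21.9% and 15.7% of all genes, the median over the 68 was 0.57, and 42 were above 0.

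Hist1 H2A genes held the largest differences. All 12 of them above 0 were called higher in V6.5 cells, with log2 ratios from 1.42 (Hist1h2ag) to 6.18 (Hist1h2af), followed by Hist1h2ad (5.48), Hist1h2ab (5.19), Hist1h2ai (4.43) and Hist1h2an (4.20). Of these 12, Hist1h2af and Hist1h2ak passed through V6.5 cells only, and the other 10 were at an FPKM of 1 or more in MEFs. The summed FPKM of the Hist1 H2A genes was 6.63-fold higher, and 11.9-fold higher without Hist1h2ap. Of the Hist2 and Hist3 H2A genes, Hist2h2aa1 (-3.11) and Hist3h2a (-2.76) were called lower, and the 5 genes together were 7.39-fold lower in summed FPKM. No H2A gene that passed the filter lay within 2-fold. The median over every H2A gene was 2.40, but 0.89 with 1 value per protein. Of the 6 H2A genes with under 50% of their 50-nt stretches shared, 3 passed the filter, namely Hist1h2ae (4.17), Hist1h2ac (1.70) and Hist3h2a (-2.76). The other 3 were Hist1h2aa, listed at 0, and the low genes Hist2h2ab and Hist2h2ac, and the median over the 6 was 0.44.

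The other types were mixed. In H1, Hist1h1c (-3.09) and Hist1h1d (-1.03) were called lower and Hist1h1a (3.39) higher, and the H1 sum was 6.46-fold lower but 1.69-fold higher without Hist1h1c. In H2B, Hist1h2bc (-1.79), Hist1h2bg (-1.71) and Hist1h2bl (-1.0) were called lower and Hist3h2ba (3.64) higher, with the other 3 that passed within 2-fold. Hist1h1a and Hist3h2ba passed through V6.5 cells only, and Hist1h1d and Hist1h2bl through MEFs only. Of 12 H3 genes, 5 were 2-fold higher without the filter, and of the 7 at an FPKM of 1 or more in MEFs 1 was. Hist1h3a (3.0) led those that passed, and Hist2h3c2 (-3.39) was called lower, the lowest ratio of all members. Of 13 H4 genes, 6 were 2-fold higher and 1 lower without the filter, and none of the 3 at 1 or more in MEFs was. The called ones, Hist1h4a (3.44), Hist1h4b (2.99) and Hist1h4d (2.31), passed through V6.5 cells only. Genes with a longer annotated transcript were split, with 9 of 27 2-fold higher and 8 lower without the filter, while the other 41 had 18 higher and 3 lower. Of the 27, 3 are H2A genes, and of the 41, 15 are, so transcript form and histone type are mixed in these counts.

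iPSCs, made by reprogramming somatic cells, were compared with the same MEF library. Of 43 genes that passed the filter, 26 were called higher in iPSCs and 5 lower, against 31.5% and 21.3% of all genes tested (52.7% in either direction, median log2 ratio 0.31). Through iPSCs only, 13 genes passed. Without the filter, 35 of the 68 genes were higher and 7 lower by 2-fold, against 23.3% and 14.3% of all genes, the median was 1.33, and 49 were above 0. Both comparisons use the same MEF library.

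In H2A, all 11 Hist1 genes that passed were called higher in iPSCs, from 1.3 (Hist1h2ao) to 2.89 (Hist1h2af), and their sum was 2.73-fold higher. Hist2h2aa2 (4.09) was called higher and Hist2h2aa1 (-2.85) lower, the copies whose reads may be split. Hist1h2af and Hist2h2aa2 passed through iPSCs only. Of the 12 H2A genes at an FPKM of 1 or more in MEFs, 10 were higher and 1 lower. Hist3h2a, at -0.55, lay within 2-fold. H4 genes were 2-fold higher in 9 of 13 without the filter, led by Hist1h4b (3.97) and Hist1h4a (3.31), and in 2 of the 3 at 1 or more in MEFs, and the H4 sum was 3.02-fold higher. H3 had 5 of 12 higher without the filter and 1 of the 7 at 1 or more in MEFs, led by Hist1h3a (2.83) and Hist1h3c (2.78), with Hist2h3c2 (-2.17) called lower.

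The sums of H1 and H2B were lower in iPSCs, and each rested on 1 gene. Hist1h1c (-2.29) was called lower and the H1 sum was 4.30-fold lower, but 1.42-fold higher without Hist1h1c. In H2B, Hist1h2bl (-2.53) and Hist1h2bk (-1.14) were called lower, and Hist3h2ba (4.38) had the highest ratio of all members. Hist3h2ba passed through iPSCs only and Hist1h2bl through MEFs only. The H2B sum was 1.19-fold lower, but 1.31-fold higher without its leading gene, Hist1h2bc, which was at -0.75.

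**Figure D3:**
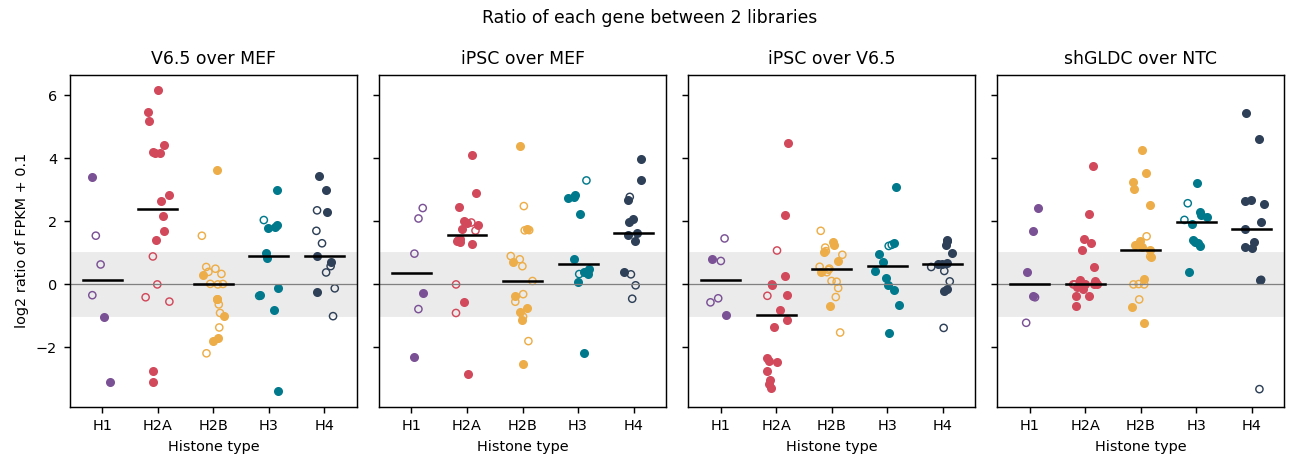
Log2 ratio of FPKM + 0.1 (vertical axis) of each of the 68 genes by histone type (horizontal axis) in the 4 comparisons. Filled points passed the filter, open points did not, black lines are the medians over every gene of the type, and the grey band marks less than 2-fold. H2A lies highest in V6.5 over MEF (median 2.40), below 0 in iPSC over V6.5 (-0.97) and at 0.01 in shGLDC over NTC, where H2B (1.08), H3 (1.98) and H4 (1.75) lie above the band.

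The pluripotent libraries were also compared with each other. Of 42 genes that passed, 10 were called higher in iPSCs than in untreated V6.5 cells and 10 lower, against 10.1% and 7.44% of all genes tested (17.5% in either direction, median log2 ratio 0.04). Without the filter, 17 of the 68 were higher and 12 lower, against 8.25% and 5.98% of all genes. Of the 10 genes called lower, 9 were Hist1 H2A genes, and the other was Hist1h3f (-1.54). The lowest were Hist1h2af (-3.28), Hist1h2ab (-3.16), Hist1h2ad (-3.03), Hist1h2ae (-2.74) and Hist1h2ai (-2.47). None of the 12 Hist1 H2A genes above 0 was higher in iPSCs, and their sum was 2.43-fold lower. Hist1h2ag differed by less than 0.01, and Hist1h2ac (-0.32) and Hist1h2ap (-0.81) lay within 2-fold. The median over every H2A gene was -0.97, but -0.36 with 1 value per protein. The 3 genes with under 50% of their 50-nt stretches shared that passed were Hist1h2ae (-2.74), Hist1h2ac (-0.32) and Hist3h2a (2.21).

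The 10 genes called higher in iPSCs were 2 H2A, 3 H2B, 2 H3 and 3 H4 genes. Of these 10, 7 passed through iPSCs only. They were led by Hist2h2aa2 (4.50), Hist1h3e (3.1) and Hist3h2a (2.21), followed by Hist1h4j (1.41) and Hist1h4c (1.37). In H2B, the called genes included Hist1h2bg (1.36) and Hist1h2bc (1.03), and without the filter 6 of 19 were higher and 1 lower. The sums of H1, H2B, H3 and H4 were 1.5-fold, 1.71-fold, 1.56-fold and 1.53-fold higher in iPSCs. The medians over every gene of the types, without the filter, were 0.15, 0.50, 0.58 and 0.64, against -0.97 for H2A.

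In the knockdown pair, H3 and H4 genes were higher in shGLDC than in NTC, and the high H2A genes were not. Of the 68 genes, 54 passed the filter, and 35 were called higher in shGLDC and 1 lower, against 8.97% and 7.68% of all genes tested (16.7% in either direction, median log2 ratio 0.04). With the filter dropped, a 2-fold difference was seen in 38 genes upward and in 3 downward, against 8.17% and 7.54% of all genes, and the median over the 68 was 1.19. Of the 54, 20 passed through shGLDC only, and of the 34 at an FPKM of 1 or more in NTC, 17 were called higher and 1 lower.

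For H3, 11 of 12 genes were 2-fold higher without the filter, and 8 of the 8 at 1 or more in NTC. Hist1h3f (3.21), Hist1h3a (2.3), Hist1h3e (2.19) and Hist1h3i (2.14) were the highest that passed and Hist2h3b (0.38) the lowest, and the sum was 3.03-fold higher. For H4, 10 of 13 genes were 2-fold higher and 1 lower without the filter, and 4 of the 5 at 1 or more in NTC were higher. The highest were Hist1h4d (listed at 0 in NTC) and Hist4h4 (4.60), both of which passed through shGLDC only, and the sum was 2.93-fold higher. Hist1h4j (0.14) was the one of the 5 within 2-fold. Hist2h4, which did not pass, was listed at 0 in shGLDC and had an FPKM of 0.899 in NTC.

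For H2B, 10 of 19 genes were 2-fold higher and 1 lower without the filter, but of the 6 at 1 or more in NTC only Hist1h2bc (1.25) and Hist1h2bg (1.19) were higher, and Hist1h2bn (-1.22) was lower. Hist1h2bb (4.26), the highest, passed through shGLDC only. Hist2h2bb, listed at 0 in NTC, was at 1.06 in shGLDC. Hist1h2bm was at -0.72. For H1, Hist1h1a (2.42) and Hist1h1c (1.69) were called higher, the first of them passing through shGLDC only. Hist1h1b was at -0.37, Hist1h1t at -0.41 and Hist1h1e at -1.22, and the median over the 6 was 0.01. The H2B sum was 2.12-fold higher, and the H1 sum 2.72-fold higher, or 1.91-fold without Hist1h1c.

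The Hist1 H2A genes stayed close to equal. Of 12 that passed, only Hist1h2ak (1.09) was called, and the ratios ran from -0.67 (Hist1h2af) upward, with Hist1h2ap and Hist1h2ad at 0.00, Hist1h2ab at 0.02 and Hist1h2an at -0.36. Their summed FPKM was 0.949 times that of NTC. Of the H2A genes of Hist2 and Hist3, Hist3h2a was at 1.44, and Hist2h2ac (3.74), Hist2h2aa1 (2.24) and Hist2h2aa2 (1.32) passed through shGLDC only. The 5 genes together were 4.48-fold higher in summed FPKM. These 4 genes were low in NTC, each with an FPKM of at most 1.04.

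Untreated V6.5 cells, in the other table, give a second level to set beside NTC. The shGLDC library was the highest of the 3 V6.5 libraries for 12 of 12 H3 genes, 12 of 13 H4 genes, 10 of 19 H2B genes, 3 of 6 H1 genes and 4 of 18 H2A genes. NTC was above untreated V6.5 cells for 6 of 12 H3 genes and 7 of 13 H4 genes. Over every gene, the median log2 ratio of shGLDC to untreated V6.5 cells was 1.34 for H3 and 1.78 for H4, and that of NTC to untreated V6.5 cells -0.11 and 0.03.

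Genes higher in shGLDC included those with little shared sequence. Without the filter, a 2-fold difference was seen in 24 genes upward and 2 downward of the 38 with under 50% of their 50-nt stretches shared, and in 14 and 1 of the other 30. Over all genes, the shares were 8.17% upward and 7.54% downward. Of the 27 genes with a longer annotated transcript, 18 were higher and 2 lower without the filter. Of the other 41, which include 15 H2A genes, 20 were higher and 1 lower.

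Other RNAs that lack a poly(A) tail also differed between these libraries. Of 8 such RNAs in the tables, 4 passed the filter, with 3 called higher and 1 lower in shGLDC, against 8.97% and 7.68% of all genes tested. Rpph1, the RNA of RNase P, had an FPKM of 0.304, 10.7, 4.51, 12.3 and 43.5. Rmrp, the RNA of RNase MRP, had 0.148, 0.811, 0.442, 0 and 7.59, and Terc, the telomerase RNA, 0, 1.04, 0.947, 0.261 and 2.92. These 3 were highest in shGLDC, and MEFs were lowest for Rpph1 and Terc. The fourth, Rnu73b, had an FPKM of 0.123 in shGLDC and 1.64 in NTC. Rmrp and Terc passed through shGLDC only and Rnu73b through NTC only, so only Rpph1 reached an FPKM of 1 in both. The summed FPKM of the 8, most of it from Rpph1, was 0.452, 13.6, 6.79, 14.2 and 54.1. That of 10 polyadenylated mRNAs was 13225 to 15338 in all 5 libraries. This second sum rests on the most abundant of them, such as Eef1a1, and single ones differed, such as Gapdh (25.0, 67.2, 101, 31.7 and 43.8). Whether the libraries differed in how RNAs without a tail were captured is not given in the sources used here, and the part of this in the histone results was not tested.

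**Figure D4:**
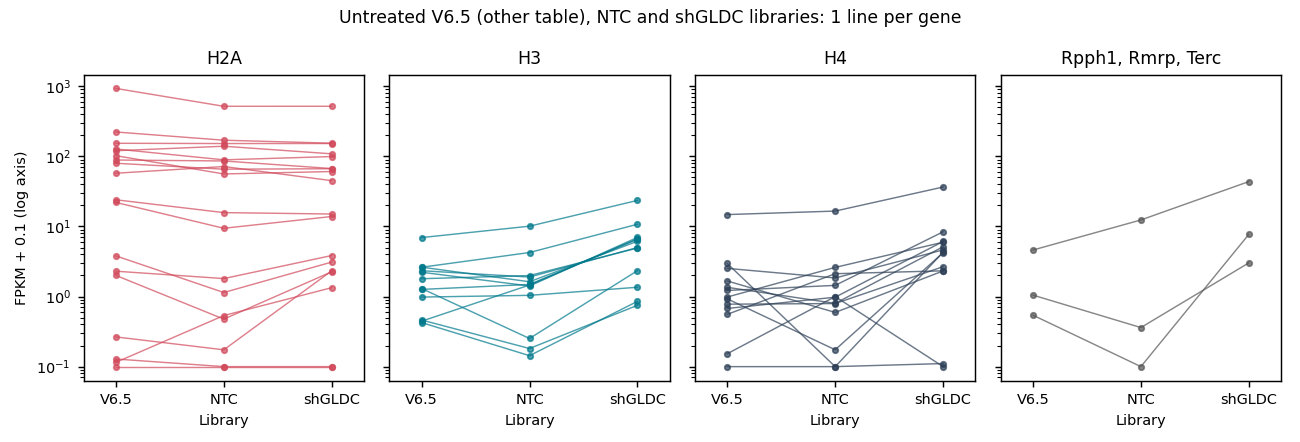
FPKM + 0.1 (vertical log axis) in untreated V6.5 cells (other table), NTC and shGLDC (horizontal axis), with 1 line per gene for H2A, H3 and H4 and for the RNAs Rpph1, Rmrp and Terc. The 12 H3 genes, 12 of 13 H4 genes (all but Hist2h4) and the 3 RNAs are higher in shGLDC than in NTC, while the high H2A lines are nearly level.

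H2A and H2B genes often lie head to head with a shared promoter region, and 13 such pairs had starts 172 to 305 bases apart. The H2A gene was the higher one in 8 pairs in MEFs, 10 in iPSCs, 11 in untreated V6.5 cells, 12 in NTC and 11 in shGLDC. The median ratio of H2A to H2B FPKM, over the pairs whose H2B gene was above 0, was 3.64, 20.3, 50.1, 35.0 and 15.7 in these libraries. It rests on 12, 13, 11, 11 and 10 pairs, so the libraries are not compared over the same pairs. For Hist1h2ah and Hist1h2bk the ratio was 2.62, 20.3, 65.8, 40.2 and 19.8, and for Hist1h2ap and Hist1h2br 614, 2668, 5123, 3803 and 3752. Hist1h2br was near the limit of the depth, with an FPKM of 0.337, 0.199, 0.182, 0.136 and 0.138. Of its 50-nt stretches 88.7% are shared, so the size of this last ratio is uncertain. The log2 ratio of V6.5 to MEF was higher for the H2A gene than for its partner in 11 of 13 pairs, by a median of 3.48. Between shGLDC and NTC it was lower for the H2A gene in 9 of 13 pairs, with a median difference of -0.07. That median is the value of Hist1h2ao and Hist1h2bq, whose H2B gene was listed at 0 in both libraries. The 13 pairs also include Hist1h2aa, listed at 0, and Hist3h2a with the pseudogene Hist3h2bb-ps.

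**Figure D5:**
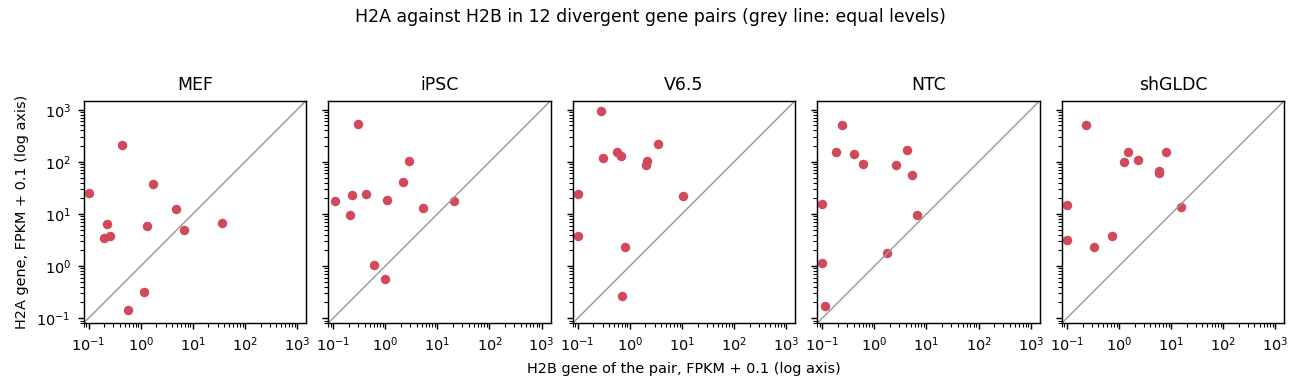
FPKM + 0.1 of the H2A gene (vertical log axis) against that of the H2B gene (horizontal log axis) of 12 head-to-head pairs, 1 point per pair and 1 panel per library. The pair of Hist1h2aa, listed at 0, is left out, and most points lie above the grey line of equal levels, with all 12 above it in NTC.

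An octamer was searched for in the promoters. RefSeq promoters (GRCm38.p6, 250 bases before to 50 after the start) were matched for 62 of the 68 genes and searched on both strands. ATTTGCAT, the octamer bound by POU factors such as Oct1, was in 7 of 18 H2A and 7 of 16 H2B promoters and in none of the 28 others, and in 1.97% of the 27025 promoters of all genes. The windows below are shown because one octamer lies in the promoters of both genes of a pair whose H2A and H2B levels differed, and the octamer is in capitals.
Hist1h2bk, shared with Hist1h2ah (chr13:22035783-22035806, plus strand): ttcactttATTTGCATacgaagtt
Hist1h2bg, shared with Hist1h2ae (chr13:23571333-23571356, plus strand): agtcccttATTTGCATagaacctc
CCAAT was in 53 of the 62 promoters (85.5%), in all 18 H2A, 16 H2B, 10 H3 and 6 H1 promoters but 3 of 12 H4 promoters, and in 41.1% of all promoters. TATAAA was in 35 of 62 (56.5%) and in 15.7% of all. The octamer was in Hist1h2ab, Hist1h2ac, Hist1h2ae and Hist1h2ah but not in Hist1h2ap, Hist1h2ad or Hist1h2af. A match is a description of these letters, not of binding.

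Replication-independent histone genes lie outside the clusters and are largely polyadenylated, though H2afx is known to give a stem-loop mRNA as well. Over 19 genes, their summed FPKM was 1150.4, 3160.5, 2578, 2672 and 2612, so that of the 68 cluster genes was below it in every library. H2afz, a variant of H2A, had an FPKM of 283, 507, 772, 1064 and 814, and H3f3b, which encodes the variant H3.3, 205, 1039, 251, 395 and 519. In V6.5 cells against MEFs, 6 of 11 that passed were called higher, led by H2afv (2.47), and H1f0 (-1.14) was called lower, beside 30.3% higher and 23.3% lower over all genes tested. None of 11 was called between shGLDC and NTC, beside 16.7% of all genes tested in either direction. At that share a list of 11 would hold few calls. Ratios ran from -0.51 (H1f0) to 0.48 (H2afv), and the sum was 0.977 times that of NTC.

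Factors that transcribe, process or deposit histones were not called in the knockdown pair. Of 31 genes for histone mRNA transcription and 3' processing that passed, none was called in either direction, beside 16.7% of all genes tested. Their ratios ran from -0.56 (Upf1) to 0.71 (Coil). None of 25 chaperone and deposition genes was called, with ratios from -0.48 (Anp32e) to 0.43 (Ubn2). Slbp had an FPKM of 18.1, 39.7, 52.3, 54.6 and 52.9, and Npat, which activates histone gene transcription, 2.19, 3.25, 2.5, 1.91 and 1.65. Against MEFs, 12 of 31 processing genes and 12 of 24 chaperone genes were called higher in V6.5 cells and none lower. The shares over all genes tested were 30.3% higher and 23.3% lower. Zfp473, a zinc finger protein of the U7 processing complex, was the highest (5.40), with an FPKM of 0.0144, 3.90, 4.73, 5.08 and 4.40, and Hat1, which acetylates new H4, led the chaperones (3.56).

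S-phase genes separated MEFs from the other libraries. Their summed FPKM over 49 genes was 1001, 3147, 4349, 4693 and 4130. Of the 49, 46 were called higher in V6.5 cells than in MEFs and none lower, against 30.3% and 23.3% of all genes tested. For 25 genes of G2 and M phase the sum was 552, 1454, 1718, 1515 and 1516. In bulk RNA, more cells in S phase and more histone RNA per cell in S phase cannot be told apart, and the part of the cell cycle in the differences from MEFs was not tested. Between shGLDC and NTC, none of the 49 S-phase genes was called, beside 16.7% of all genes tested in either direction. The ratios ran from -0.95 (E2f2) to 0.77 (Ccne2), with a median of -0.18. Between iPSCs and V6.5 cells, 2 were called lower (4.08%), below the 7.44% of all genes tested, and the median was -0.39.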

How the data were processed

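Total RNA of 5 mouse cell samples was extracted for RNA-seq, and the authors deposited FPKM values per gene in 2 tables. Per the study's methods, reads were mapped to mm10 with TopHat2 and assembled with StringTie, and expression was computed with Ballgown. The submitters' processing notes list TopHat2 2.1.0, StringTie 1.3.4d and SAMtools 1.7, and name both mm9 and mm10. Selection of poly(A) RNA or depletion of rRNA, the gene annotation, strand setting and treatment of multi-mapping reads are not given in the sources used here. No counts were used, so depth was estimated from the steps between low values (0.0345 to 0.0453 FPKM for a 1-kb transcript), and precision at low values is limited to counting error.

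From the deposited FPKM values, log2 ratios were computed as differences in log2(FPKM + 0.1), with Python 3.11.15, numpy 2.4.6 and pandas 2.3.3. Genes were called within a table only, and ratios to untreated V6.5 cells in the knockdown pair cross the tables. A gene was kept where one of the libraries compared reached an FPKM of 1, and a log2 ratio of at least 1 or at most -1 was called. With 1 library per group, no test was run. The calculation was tested on simulated data. Transcripts came from GENCODE M21 and promoters from RefSeq. The members and the other gene lists were chosen with earlier results of these data known. Named with values were all 55 members that reached an FPKM of 1 in at least 1 library. They include the members that reached 10, the 5 highest and 5 lowest ratios of each comparison, and the leading member of each type. Members that differ in protein, stem-loop or intron were named as well. Members under 1 in every library are mostly described by that limit, with values printed for Hist2h3c1 and Hist1h2br and single values for a few others. Alternatives were other pseudocounts, filters, scalings and subsets of members.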

Additional observations from a re-analysis of the deposited data

How the results depend on the processing

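No log2 ratio or median of at least 2-fold changed sign under the alternatives run. Among smaller ones, 17 log2 values did, including the H1 median in V6.5 over MEF (0.15, and -0.03 with a pseudocount of 1), the H2B median past the filter in iPSCs over MEFs (-0.55, and 0.69 over genes with little shared sequence), the median past the filter in iPSCs over V6.5 (0.23, with a mean of -0.03), and Hist1h2ap, Hist1h2ad and Hist1h2ab in shGLDC over NTC, each within 0.04 of 0. Median log2 ratios of the members moved by less than the spread of NTC over untreated V6.5 cells (0.59) in 53 of 56 cases, and those of single histone types in 251 of 280. For V6.5 over MEF, the median over members that passed was 1.56, and 0.91 with a pseudocount of 1 and 0.59 with 1 value per protein. For iPSCs over MEFs, the median over every member was 1.33, and 0.49 with a pseudocount of 1. Counts changed by under 1.5 times in 36 of 48 cases over all members and in 187 of 240 over single types, and 31 of 368 values of named members moved. Requiring an FPKM of at least 5 left fewer genes, with 12 higher and 5 lower in V6.5 over MEF, 14 and 2 in iPSCs over MEFs, 3 higher in iPSCs over V6.5, and 14 and 0 in shGLDC over NTC. A pseudocount of 1 left 3 lower in iPSCs over MEFs, 4 higher in iPSCs over V6.5 and 0 lower in shGLDC over NTC. Without a filter, iPSCs over V6.5 had 17 higher and shGLDC over NTC 3 lower.

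Sums rested on few genes. Without the 5 members of highest mean FPKM, they were 226, 241, 494, 425 and 548 in MEFs, iPSCs, untreated V6.5, NTC and shGLDC, and for H2A 67.0, 101, 406, 340.2 and 318. Without the 24 members that overlap another annotated gene, they were 156, 134, 84.9, 82.1 and 218, and the order of V6.5 cells and MEFs turned. No H2A gene was left then, so H2A has no value. No paired analysis was possible because each group is 1 library. With no replicates and no deposited counts, differences at low FPKM cannot be weighed against sampling error.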
